A study of Mus musculus with 12 samples.

Results

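A set of 7 genes of the inflammasome and of pyroptosis was followed in mouse macrophages that carried or lacked the histone methyltransferase DOT1L. The members were 3 sensors (Nlrp3, Nlrc4 and Aim2), the adaptor Pycard, the caspases Casp1 and Casp4, and the pore-forming protein gene Gsdmd. They were chosen by name from the pathway, by a rule that uses no measured value but with earlier results of these data known, and all 7 of them were found among 24445 genes and passed the filter on low counts in every comparison. The study asked how DOT1L bears on the lipid metabolism and the inflammatory state of macrophages. Messenger RNA was sequenced from bone marrow-derived macrophages of C57BL/6 mice, which had been differentiated over 7 to 8 days with M-CSF from L929-conditioned medium. The 4 groups of 3 libraries each were untreated wild-type (WT) cells, untreated cells of mice with a myeloid DOT1L knockout (KO), and cells of both genotypes after 3 hours with lipopolysaccharide (LPS) of Escherichia coli O111:B4 at 10 ng/mL. Lyz2, a gene of myeloid cells, is named in the labels beside the strain, and the libraries are called biological replicates. They give neither the deleted exons nor the animals' age or sex.

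An inflammasome is a protein complex that assembles around a sensor in the cytosol, usually through the adaptor ASC, the product of Pycard, and activates caspase-1. Caspase-1 matures the cytokines interleukin-1β and interleukin-18 and cleaves gasdermin D, whose fragment forms pores in the plasma membrane and ends in pyroptosis, a lytic form of cell death. In mice the product of Casp4, caspase-11, binds LPS in the cytosol directly and cleaves gasdermin D without caspase-1. In macrophages LPS outside the cell acts through the receptor TLR4 and raises the transcripts of several of these genes, a step known as priming. The activation that follows occurs in the proteins and is not measured by transcript counts.

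Levels are given as counts per 1e6 counts (CPM) on 1 scale over the 12 libraries, set by the TMM method of edgeR. Total counts ran from 8.64 to 13.54 M (1e6) per library, and a floor of 3 counts corresponds to 0.222 to 0.347 CPM before TMM scaling, a limit that covers counting error only. Macrophage markers summed to 5979.3 to 9742.0 CPM (8 of 8 detected), while lymphocyte, stromal and mast cell lists each summed to no more than 1.05 CPM and dendritic cell markers to 1.25 to 6.92 CPM. WT replicate 1 stood apart from the other libraries in both conditions, at 38.1 and 41.8 on the second principal component (4.68% of the variance) against -14.5 to 4.4. Replicate 2 was male in all 4 groups, with Ddx3y at 94.2 to 106.1 CPM and at 0 in the other libraries. Dot1l held 101.4 ± 16.4 CPM in untreated WT and 90.0 ± 6.79 in untreated KO cells, and 65.7 ± 4.51 and 69.6 ± 4.07 CPM with LPS (SD, n = 3 each). As the deleted exons are not given, its reads check nothing about the labels, and Lyz2 was lower in KO by 1.17 on the log2 scale with LPS (-1.17 ± 0.10, edgeR adjusted p = 0.00143) and by a similar amount without it (-1.16 ± 0.11, adjusted p = 0.0784).

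Each member had 1 RefSeq transcript in the files. The spans below are those of the genes. Exon numbers are those of the annotated transcript matched to the counted one, which may cover less than the span. On the mm10 build, Nlrp3 lies on chromosome 11 from 59541569 to 59566955 (10 exons), Nlrc4 on chromosome 17 from 74426255 to 74459144 (9 exons) and Aim2 on chromosome 1 from 173349547 to 173466040 (12 exons). Pycard lies on chromosome 7 from 127991373 to 127993867 (3 exons) and Gsdmd on chromosome 15 from 75862144 to 75867408 (11 exons). Casp1, from 5298517 to 5307281 (10 exons), and Casp4, from 5308849 to 5336791 (9 exons), are neighbours on chromosome 9. The span of Nlrc4 overlaps a pseudogene, Gm4708, and that of Aim2 overlaps Cadm3, which had 0 to 11 reads per library. Whether any reads counted for Nlrc4 also match the pseudogene was not tested.

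The sequences before the start sites are shown for 4 members whose response to LPS is described next: the pair of neighbouring caspase genes, the most strongly raised sensor and the sensor that fell. They are RefSeq windows of GRCm38.p6, 250 bases before to 50 bases after an annotated start, read 5′ to 3′ on the strand of the gene. The capitals mark matches on either strand to a 10-base consensus of NF-kB or to the core GAGGAAG of PU.1, a factor of the myeloid lineage. The windows are chr11:59542436-59542735 (plus strand) for Nlrp3, chr17:74459059-74459358 (minus strand) for Nlrc4, chr9:5298267-5298566 (plus strand) for Casp1 and chr9:5308599-5308898 (plus strand) for Casp4.
Nlrp3: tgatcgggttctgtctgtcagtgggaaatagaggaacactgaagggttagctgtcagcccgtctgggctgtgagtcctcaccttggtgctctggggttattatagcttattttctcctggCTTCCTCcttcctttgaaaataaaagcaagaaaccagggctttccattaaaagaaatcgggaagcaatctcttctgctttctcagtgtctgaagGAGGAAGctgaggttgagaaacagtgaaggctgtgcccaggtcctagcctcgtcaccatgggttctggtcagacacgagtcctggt
Nlrc4: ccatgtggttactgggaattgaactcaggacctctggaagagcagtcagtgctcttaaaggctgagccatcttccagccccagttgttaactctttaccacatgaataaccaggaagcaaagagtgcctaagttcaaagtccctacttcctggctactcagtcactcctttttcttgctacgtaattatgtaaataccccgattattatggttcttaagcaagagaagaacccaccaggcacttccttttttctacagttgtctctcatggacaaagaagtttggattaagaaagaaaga
Casp1: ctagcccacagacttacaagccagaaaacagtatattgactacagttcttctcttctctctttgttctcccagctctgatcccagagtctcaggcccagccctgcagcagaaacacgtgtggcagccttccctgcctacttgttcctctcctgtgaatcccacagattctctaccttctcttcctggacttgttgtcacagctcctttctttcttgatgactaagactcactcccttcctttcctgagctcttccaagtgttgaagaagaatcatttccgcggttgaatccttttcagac
Casp4: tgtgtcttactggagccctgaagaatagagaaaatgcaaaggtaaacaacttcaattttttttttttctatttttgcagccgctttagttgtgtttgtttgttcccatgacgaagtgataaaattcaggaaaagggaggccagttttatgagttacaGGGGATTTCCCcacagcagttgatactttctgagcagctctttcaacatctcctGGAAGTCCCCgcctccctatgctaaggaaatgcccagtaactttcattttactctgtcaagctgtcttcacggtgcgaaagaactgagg

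In the Casp4 window 2 overlapping matches to the NF-kB consensus began 93 and 92 bases before the start site, and another 1, on the opposite strand, began 39 bases before it. This consensus was found in 8.46% of 32851 mouse windows of the same length. The Nlrp3 window held 2 matches to the PU.1 core, 130 and 36 bases before the start, and a second RefSeq window of the gene, at chr11:59541319-59541618, held 1 NF-kB match, 186 bases before its start. One PU.1 match each was found for Aim2 (113 bases before the start) and Pycard (43 bases), against 13.6% of all windows. The start used for the Aim2 window lay 69725 bases from that of the annotated transcript matched to the counted one, against 0 for Pycard. The Aim2 match may thus not lie before the start of the transcript that was counted. The windows of Nlrc4 and Casp1 held none of the 4 motifs searched, which were these together with the interferon-stimulated response element (3.44% of windows) and the AP-1 site TGANTCA (7.81%), and none of the windows held either of the latter. The search was made on both strands and describes letters alone, so that it shows neither binding nor its absence, and Gsdmd had no entry in the table.

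LPS was compared with no treatment first, within each genotype. Of the 7 members, 6 rose and 1 fell in WT cells, and the same 6 rose and the same 1 fell in KO cells, by edgeR's quasi-likelihood F test with Benjamini-Hochberg adjustment over all genes at a threshold of 0.05. Casp4 and Nlrp3 rose most, Aim2, Casp1 and Gsdmd rose less, Pycard rose least, and Nlrc4 fell. Across all 11984 genes tested, 57.4% were called in WT (27.6% higher and 29.8% lower) and 61.2% in KO (30.3% higher and 30.9% lower), so that a call alone was common. LPS-treated and untreated libraries did not overlap for any of the 7 members in either genotype, nor for 57.8% of all genes in WT and 74.1% in KO. The median log2 fold change of the members was 1.91 in WT and 2.06 in KO, against -0.05 and -0.02 over all genes. As these are bulk samples, fewer cells that express a gene and less RNA of it per cell cannot be told apart.

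**Figure D1:**
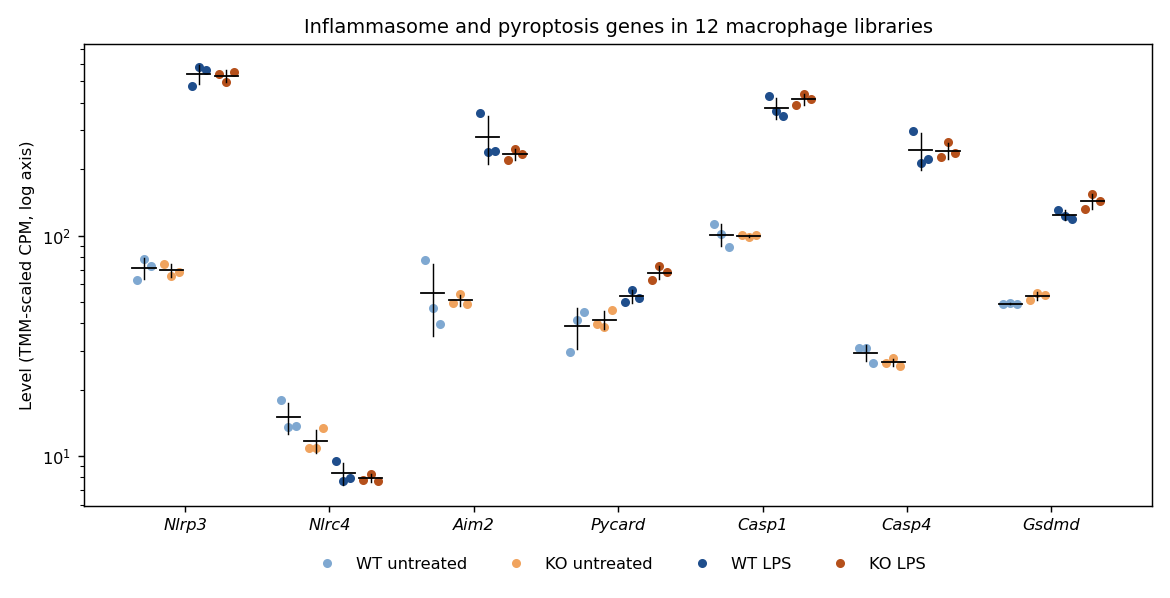
Level of each gene in each library, as TMM-scaled CPM on a log axis, with the 4 groups side by side. Points are libraries in the order of replicates 1 to 3, horizontal bars are means and vertical bars are SD (n = 3 each); the LPS-treated and untreated libraries do not overlap for any of the 7 genes within a genotype, and Nlrc4 is the gene that lies lower with LPS.

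Nlrp3 encodes the sensor that responds to potassium efflux, particles and many other signs of damage. The 3 untreated WT libraries held 62.9, 78.4 and 72.8 CPM and the 3 untreated KO libraries 74.6, 65.5 and 68.5 CPM. With LPS the values were 477.7, 580.1 and 561.1 CPM in WT and 541.3, 495.3 and 554.6 CPM in KO. Every LPS-treated library thus lay far above every untreated one, and the genotypes overlapped in both conditions. The log2 fold change was 2.92 ± 0.11 in WT (edgeR adjusted p = 3.79e-11), a 7.56-fold rise, and 2.93 ± 0.11 in KO (adjusted p = 3.08e-11), a 7.62-fold rise, where ± is the standard error. Among all genes tested, 3.98% rose more in WT and 4.08% in KO.

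Aim2 encodes a sensor of double-stranded DNA in the cytosol. Its untreated levels were 77.2, 47.0 and 39.8 CPM in WT and 49.5, 54.4 and 49.1 CPM in KO. With LPS they were 360.2, 239.3 and 241.5 CPM in WT and 220.4, 247.0 and 234.2 CPM in KO. The first WT replicate was the highest library of its condition both times. Aim2 rose by 2.36 ± 0.21 (log2) in WT (edgeR adjusted p = 4.24e-07) and by 2.20 ± 0.21 in KO (adjusted p = 7.38e-07), which are 5.14-fold and 4.59-fold.

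Nlrc4 encodes the platform that NAIP proteins switch on when they bind flagellin or parts of bacterial secretion systems. It was the member of lowest level, with 63 to 206 reads per library. Untreated cells held 17.9, 13.5 and 13.7 CPM in WT and 10.9, 10.9 and 13.4 CPM in KO. LPS-treated cells held 9.44, 7.68 and 7.96 CPM in WT and 7.78, 8.31 and 7.71 CPM in KO. All 6 treated libraries were below all 6 untreated ones. The log2 fold change was -0.85 ± 0.15 in WT (0.555-fold, edgeR adjusted p = 0.000255) and -0.57 ± 0.15 in KO (0.675-fold, adjusted p = 0.00429). With LPS, 83.3% of all genes in WT and 74.9% in KO had a higher change than Nlrc4.

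Pycard encodes ASC, the adaptor that joins several sensors to caspase-1. Untreated levels were 29.7, 41.4 and 45.1 CPM in WT and 39.8, 38.4 and 45.8 CPM in KO. LPS-treated levels were 49.7, 56.9 and 52.3 CPM in WT and 63.1, 72.4 and 68.2 CPM in KO. The groups did not overlap within a genotype, but the lowest treated and the highest untreated WT library lay close together. Pycard rose by 0.45 ± 0.13 (log2) in WT (1.37-fold, edgeR adjusted p = 0.0105) and by 0.71 ± 0.13 in KO (1.64-fold, adjusted p = 0.000302). These calls held on the TMM scale and were lost on a scale of total counts, where the log2 fold change was -0.10 in WT (adjusted p = 0.538) and 0.12 in KO (adjusted p = 0.46).

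Casp1 encodes the effector caspase of the sensors above. Untreated cells had 112.6, 101.6 and 89.1 CPM in WT and 100.4, 98.0 and 100.1 CPM in KO. After LPS the values were 427.8, 366.8 and 348.0 CPM in WT and 390.2, 440.7 and 415.7 CPM in KO. Treated libraries were all above untreated ones, and the genotypes overlapped in both conditions. The rise was 1.91 ± 0.10 (log2) in WT (3.77-fold, edgeR adjusted p = 1.49e-09) and 2.06 ± 0.10 in KO (4.18-fold, adjusted p = 5.98e-10).

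Casp4, the gene of caspase-11, had the largest log2 fold change of the 7 in both genotypes. Its levels without LPS were 31.0, 30.8 and 26.5 CPM in WT and 26.4, 27.8 and 25.7 CPM in KO. Levels with LPS were 299.5, 213.8 and 223.3 CPM in WT and 227.3, 264.5 and 236.7 CPM in KO. Treated and untreated libraries were far apart, and the genotypes overlapped in both conditions. The log2 fold change was 3.06 ± 0.13 in WT (8.35-fold, edgeR adjusted p = 1.33e-10) and 3.19 ± 0.13 in KO (9.13-fold, adjusted p = 7.94e-11), and 3.8% and 3.52% of all genes rose more.

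Gsdmd encodes gasdermin D, the shared substrate of caspase-1 and caspase-11. Untreated WT libraries held 48.7, 49.3 and 49.0 CPM, and untreated KO libraries 50.8, 55.1 and 53.6 CPM. LPS-treated WT libraries held 130.7, 122.4 and 119.0 CPM, and LPS-treated KO libraries 132.4, 155.0 and 143.5 CPM. The KO libraries lay above the WT libraries in both conditions by small margins. Gsdmd rose with LPS by 1.34 ± 0.08 (log2) in WT (2.53-fold, edgeR adjusted p = 3.9e-09) and by 1.43 ± 0.08 in KO (2.70-fold, adjusted p = 1.49e-09).

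The scale of the libraries bore on the size of these changes. TMM factors were 1.15 to 1.26 in untreated and 0.772 to 0.847 in LPS-treated libraries, and scaling by total counts moved the median log2 fold change of all genes by -0.54 in WT and -0.60 in KO, to -0.59 and -0.62. On that scale 14.4% of all genes were called higher and 63.6% lower in WT, and 14.8% and 65.3% in KO. Nlrp3 (2.37 in WT and 2.34 in KO), Aim2 (1.81 and 1.6), Casp1 (1.36 and 1.47), Casp4 (2.51 and 2.60), Gsdmd (0.79 and 0.84) and Nlrc4 (-1.39 and -1.16) kept their log2 direction and their call. Pycard did not, as given above. Relative to the median of all genes, Pycard lay 0.49 higher in WT and 0.74 higher in KO on the total-count scale. Which of the scales is nearer to the RNA content of the cells was not tested.

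**Figure D2:**
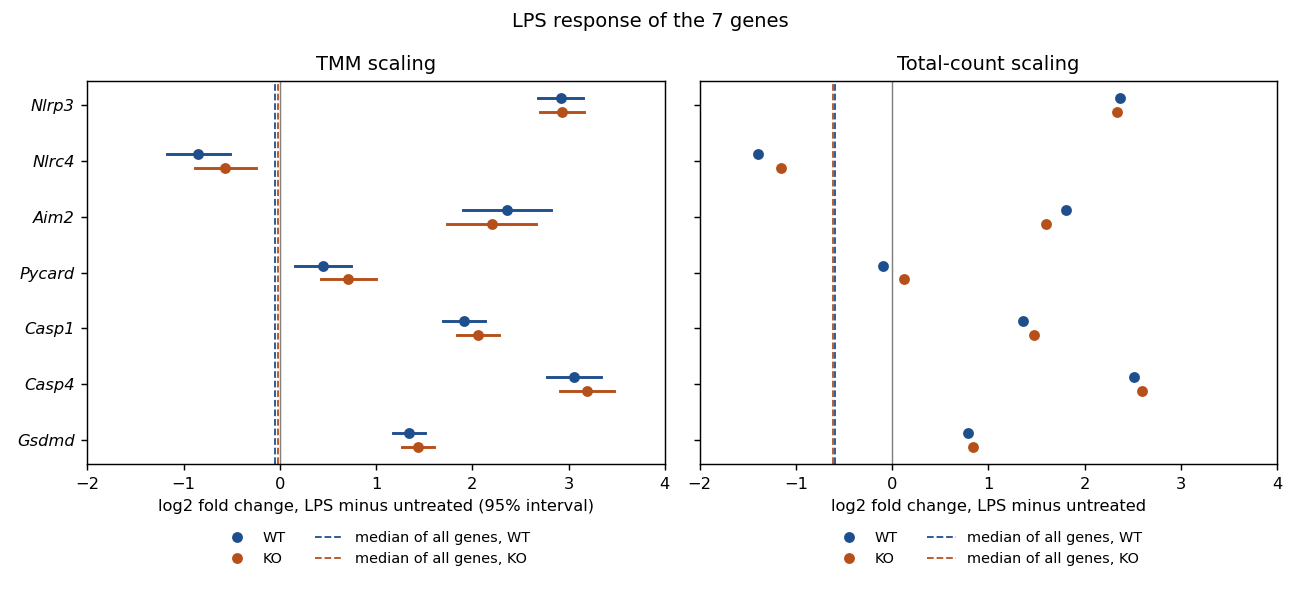
LPS response of the 7 genes in WT and KO cells as log2 fold changes, with TMM scaling (left, points and 95% intervals) and with total-count scaling (right, points). Dashed lines are the medians of all genes; 6 genes stay on their side of 0 under both scalings, while Pycard in WT moves from 0.45 to -0.10.

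Levels of different genes were compared per transcript length, with the RPKM values that the authors deposited. In untreated cells Casp1 was highest, at 70.7 ± 5.64 RPKM in WT and 73.4 ± 2.14 in KO (SD, n = 3 each), and Gsdmd followed at 29.3 ± 1.66 and 33.4 ± 1.14. Aim2, Casp4, Pycard and Nlrp3 came next, with means between 18.8 and 22.5 RPKM whose neighbours in the order overlapped between libraries. In WT, Gsdmd overlapped with Aim2 as well. Nlrc4 was lowest, at 4.11 ± 0.451 RPKM in WT and 3.40 ± 0.456 in KO. With LPS the order spread out, and Casp1 remained highest, at 181.7 ± 8.45 and 203.6 ± 8.83 RPKM. Casp4 rose from among the lower genes to the place behind Casp1, at 122.4 ± 15.4 RPKM in WT and 124.6 ± 7.03 in KO, and Nlrp3 followed it, at 97.2 ± 15.3 and 97.4 ± 7.99. Aim2 (79.0 ± 14.1 and 68.1 ± 2.73 RPKM), Gsdmd (50.5 ± 0.954 and 59.9 ± 3.59), Pycard (17.9 ± 2.13 and 23.4 ± 1.22) and Nlrc4 (1.56 ± 0.0807 and 1.52 ± 0.0251) followed. Among neighbours in this order, the libraries of Nlrp3 and Aim2 overlapped in WT and no other pair did in either genotype. The adaptor was thus about level with Nlrp3 and Aim2 before LPS and below both after it.

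**Figure D3:**
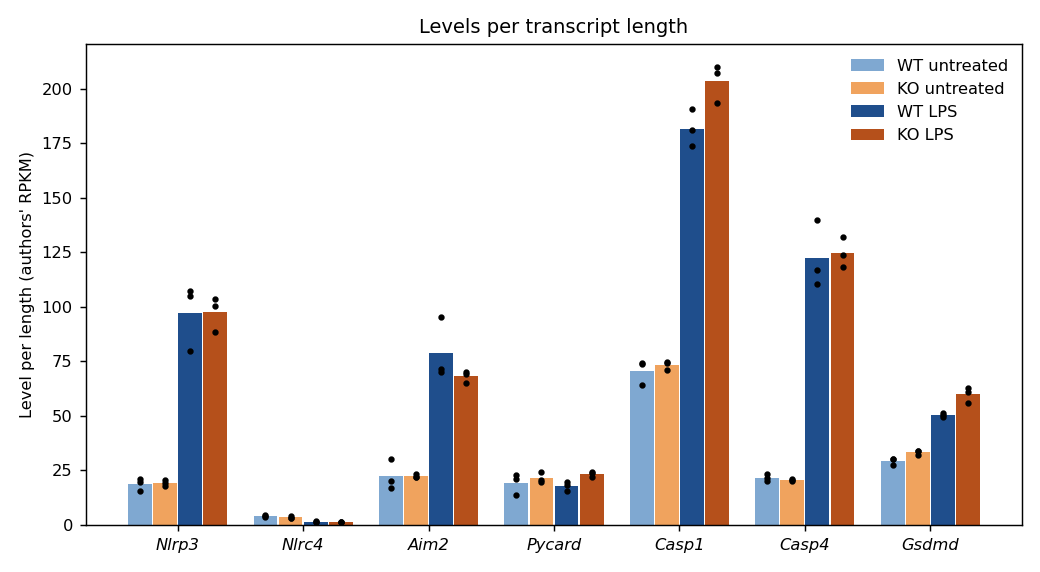
Level per transcript length (the authors' RPKM) of the 7 genes in the 4 groups. Bars are means from 0 and points are the 3 libraries of a group; Casp1 is highest in every group, from 70.7 RPKM in untreated WT to 203.6 RPKM in LPS-treated KO cells, and Nlrc4 is lowest.

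KO was then compared with WT, without LPS. None of the 7 members passed the test or had an unadjusted p under 0.05, and DESeq2 and limma-voom called none of them either. Among all 11622 genes tested, 0.0% were called by edgeR at the adjusted threshold, 7.24% had an unadjusted p under 0.05, and DESeq2 called 49 genes. The log2 fold change (KO minus WT) of Nlrp3 was -0.02 ± 0.10 with a 95% interval of -0.25 to 0.22, and that of Casp1 lay at 0 with an interval of -0.23 to 0.23 (edgeR adjusted p = 0.993 and 1.0). Casp4 was at -0.12 ± 0.10 (-0.36 to 0.11, adjusted p = 0.902), Gsdmd at 0.14 ± 0.08 (-0.04 to 0.32, adjusted p = 0.799) and Pycard at 0.11 ± 0.16 (-0.25 to 0.47, adjusted p = 0.945). The widest interval was that of Aim2, at -0.07 ± 0.22 (-0.58 to 0.43, adjusted p = 0.978), and Nlrc4 was at -0.33 ± 0.16 (-0.69 to 0.03, adjusted p = 0.734). The intervals of Nlrp3 and Casp1 were thus narrower than those of Aim2, Nlrc4 and Pycard, so that smaller differences could be seen in the former. The genotypes did not overlap for Nlrc4, which was lower in KO by a margin of 13.5 against 13.4 CPM between the nearest libraries, and for Gsdmd, which was higher, 2 of 7 members against 15.2% of all genes. Without WT replicate 1 the value of Nlrc4 was -0.19, that of Aim2 turned to 0.25 (adjusted p = 0.0861), that of Pycard to -0.04 and that of Casp1 to 0.08, and 749 genes were called in all, none of them a member.

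With LPS, KO and WT again differed in none of the 7 members by the adjusted test, against 1.13% of 11264 genes called. Pycard and Gsdmd had unadjusted p under 0.05, which 13.8% of all genes had. Pycard had means of 53.0 ± 3.62 CPM in WT cells and 67.9 ± 4.66 CPM in KO cells (SD over 3 libraries), with all KO libraries above all WT libraries. Its log2 fold change was 0.35 ± 0.09, with a 95% interval of 0.15 to 0.54 (unadjusted p = 0.00281 and adjusted p = 0.109 by edgeR's quasi-likelihood test). Over all alternatives it ranged from 0.30 to 0.40, and the adjusted p from 0.0487 to 0.384. It passed the threshold in 1 of them, without WT replicate 1, at 0.30. In that setting 545 genes were called in all, against 127 with every library kept. Gsdmd stood at 124.0 ± 6.01 CPM in WT and 143.6 ± 11.3 CPM in KO, at a log2 fold change of 0.20 ± 0.09 (0.01 to 0.39, edgeR adjusted p = 0.327), again without overlap. For Pycard and Gsdmd, 2 of 7 members, the groups were thus apart, as they were for 20.3% of all genes.

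The other 5 members lay nearer to 0 or had wider intervals with LPS. Nlrp3 was at -0.03 ± 0.10 (log2, KO minus WT, 95% interval -0.25 to 0.18), Casp4 at -0.02 ± 0.13 (-0.30 to 0.26) and Nlrc4 at -0.07 ± 0.15 (-0.40 to 0.25). Casp1 was at 0.12 ± 0.10 (-0.10 to 0.33) and Aim2 at -0.27 ± 0.15 (-0.59 to 0.05), and edgeR's adjusted p of these 5 ran from 0.443 to 0.954. Without WT replicate 1 the value of Aim2 became -0.05, that of Casp4 0.14 and that of Nlrc4 0.01. Of the markers of other cells, none was called between genotypes without LPS, and Mmp8 and Vcan were called higher in KO with it. The 11 neutrophil markers, all in the files, summed to 55.8 to 105.0 CPM in WT and 112.2 to 113.5 CPM in KO without LPS, and to 64.9 to 117.9 and 117.1 to 129.0 CPM with it. Most of the sum came from Mmp8, and Ly6g was at 0 in all untreated libraries. The 6 monocyte markers, all in the files, summed to 28.5 to 64.4 CPM in WT and 44.1 to 61.5 CPM in KO without LPS, and to 177.7 to 235.9 and 270.9 to 279.9 CPM with it, where most of the sum came from Vcan (150.5 to 189.3 CPM in WT and 229.8 to 243.4 CPM in KO). The part of these markers in the values of Pycard and Gsdmd was not tested.

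**Figure D4:**
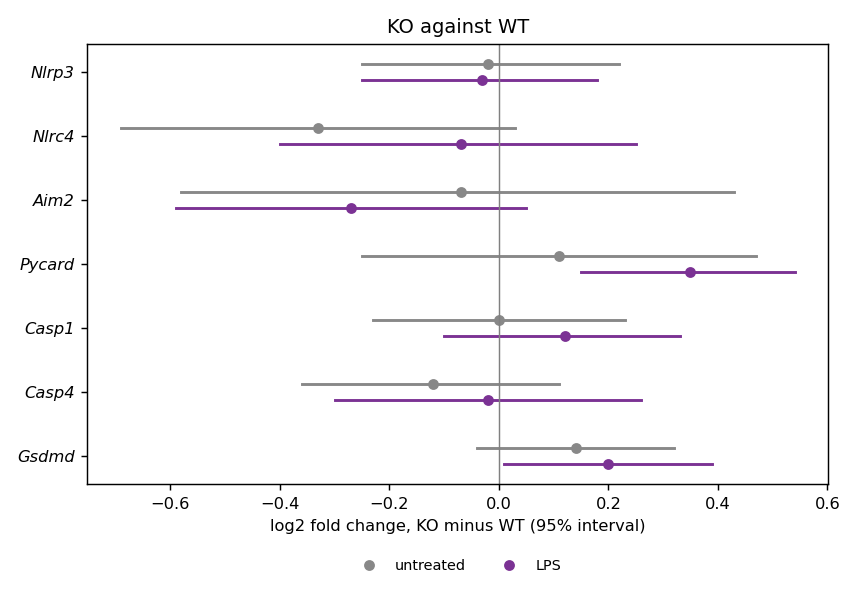
KO against WT for the 7 genes, without and with LPS, as log2 fold changes with 95% intervals. With LPS the intervals of Pycard (0.15 to 0.54) and Gsdmd (0.01 to 0.39) lie above 0 before adjustment for all genes, and the other intervals cover 0.

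The difference between the LPS responses of KO and WT cells was tested directly as an interaction. None of the 7 members passed (edgeR adjusted p = 1.0 for each, with 0 members at an unadjusted p under 0.05 and 0 called by DESeq2). Of all 11984 genes 0.0% were called, and 2.4% had an unadjusted p under 0.05. The responses of Nlrp3 differed by 0.01 ± 0.14 (log2, 95% interval -0.30 to 0.32) and those of Gsdmd by 0.09 ± 0.11 (-0.14 to 0.33). Casp1 (0.15 ± 0.14, -0.15 to 0.45), Casp4 (0.13 ± 0.17, -0.24 to 0.50) and Pycard (0.26 ± 0.19, -0.14 to 0.67) had larger responses in KO with intervals that cover 0. Nlrc4 (0.28 ± 0.21, -0.17 to 0.74) fell less in KO and Aim2 (-0.17 ± 0.29, -0.79 to 0.46) rose less, again with intervals that cover 0. Differences of 1 log2 unit or more thus lay outside all 7 intervals.

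WT replicate 1 carried much of the spread among replicates. Its Aim2 level was 1.78 times the mean of the other replicates of its group without LPS and 1.5 times with LPS. Nlrc4 (1.32 and 1.21 times), Casp1 (1.18 and 1.2 times) and Casp4 (1.08 and 1.37 times) were also higher in it, while Nlrp3 was lower in both conditions (0.832 and 0.837 times). Pycard was at 0.687 times untreated and 0.911 times with LPS, and Gsdmd, at 0.99 and 1.08 times, moved least. The sensors Nlrp3 and Aim2 thus deviated in opposite directions in this replicate, in both conditions.

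**Figure D5:**
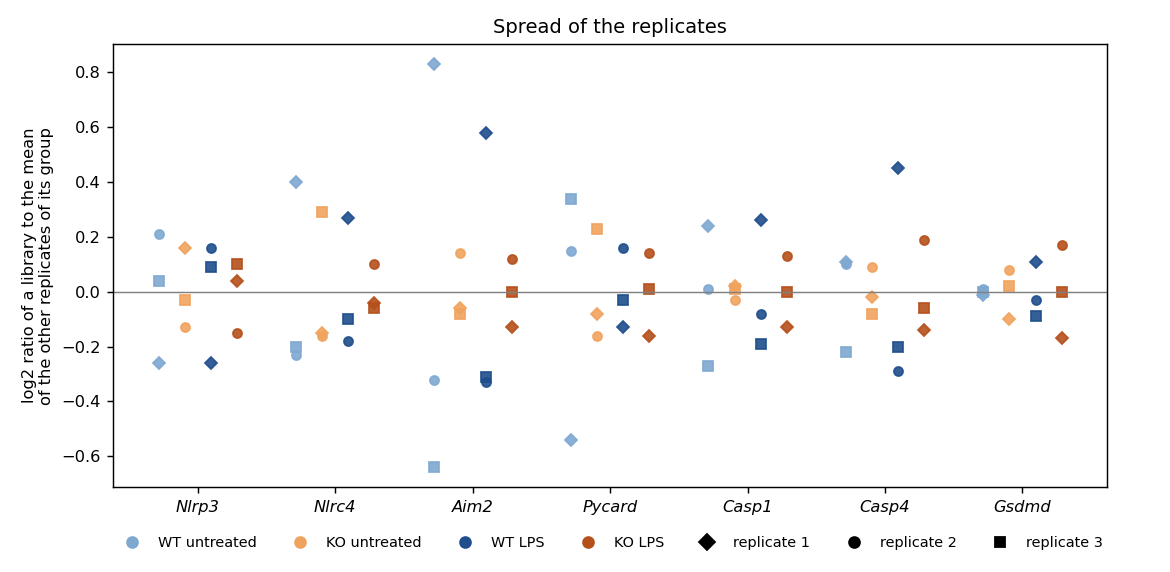
Log2 ratio of each library to the mean of the other replicates of its group, for the 7 genes and 4 groups. Diamonds are replicate 1, circles replicate 2 and squares replicate 3; the diamonds of the WT groups lie highest for Aim2, at ratios of 1.78 and 1.5, and below 0 for Nlrp3 and Pycard.

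The genes most like each member over the 12 libraries were named by the Pearson correlation of log2 CPM. They were taken from 9238 genes with a mean log2 CPM of at least 2. Predicted genes (names in Gm with digits or ending in Rik) and the genes of a single chromosome had been left out. These correlations share libraries, TMM scaling and the LPS contrast, and 1886 to 1975 genes had r of at least 0.9 with each of Nlrp3, Aim2, Casp1, Casp4 and Gsdmd, so they are a description. For Nlrp3 the highest were Ccrl2 and Otud1 (r = 0.999 each), for Casp1 Ccdc50 (0.999) and Tlr3 (0.998), for Casp4 Niban1 and Fnbp1l (0.999 each) and for Gsdmd Ist1 (0.998) and Icosl (0.997). The gene most like Aim2 was Ifi204 (0.999), followed by Mndal (0.998), both of the same family of interferon-inducible genes as Aim2, among which reads of similar sequence may be shared. Ifi204 held 210.0, 111.4 and 79.8 CPM in untreated WT and 1787.2, 1011.1 and 1098.6 CPM in LPS-treated WT libraries, and so was also highest in WT replicate 1. Fewer genes were close to Pycard (360 at r of at least 0.9, led by Tmsb4x at 0.983 and Etfa at 0.978) and Nlrc4 (371, led by Ctcf at 0.978 and Gas5 at 0.973). Among the members, Casp1 and Casp4 were most alike (r = 1.0 over the 12 libraries after rounding to 2 decimals). Neither was among the genes named above for the other, so their r was no higher than the values given there. With each group's mean taken off, Casp1 and Casp4 had r = 0.84, Aim2 and Casp1 0.90, and Nlrp3 and Aim2 -0.82, with WT replicate 1 among the libraries. On that measure 749 of the 9238 genes had r of at least 0.9 with Aim2, 155 with Pycard, 150 with Nlrp3 and 89 with Casp1. For Casp4 there were 30 such genes, for Nlrc4 12 and for Gsdmd 3. The highest value for Aim2 was then that of Zfp207 (0.993), followed by Ccnk (0.991), neither of which is in the pathway lists. The others were Fads3 (0.973) and Atad3a (0.972) for Nlrp3, S100a10 (0.933) and Cobll1 (0.932) for Nlrc4, Cops7b and Nfatc2ip (0.976 each) for Pycard, Usp25 (0.98) and Lacc1 (0.978) for Casp1, Etv6 (0.957) and Mark2 (0.945) for Casp4, and Foxo4 (0.947) and Ssh3 (0.921) for Gsdmd.

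Around the members, 54 other genes of the pathway were listed by role, and 53 of them were tested for LPS. In WT 36 rose and 9 fell (median log2 fold change 1.56), and in KO 35 rose and 8 fell (median 1.73), against the shares of all genes given above. On the total-count scale 31 rose and 18 fell in WT, and 31 rose and 20 fell in KO. There, 14.4% of all genes were called higher and 63.6% lower in WT, and 14.8% and 65.3% in KO. The cytokines that caspase-1 matures and Il1a, which it does not cut, all rose on both scales. Il1b rose from 1.16, 1.76 and 1.40 to 724.0, 792.0 and 785.2 CPM in WT and from 2.67, 2.94 and 2.60 to 1278.9, 889.6 and 1458.4 CPM in KO, log2 fold changes of 9.02 ± 0.22 and 8.79 ± 0.21 (edgeR adjusted p = 9.78e-13 and 6.4e-13). Il1a rose by 8.16 ± 0.25 in WT and 8.78 ± 0.25 in KO, and Il18 by 2.28 ± 0.23 and 2.30 ± 0.22.

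Of 9 other sensors tested, 2 rose and 3 fell in each genotype on the TMM scale, and 2 rose and 7 fell on the total-count scale. Of all genes, 27.6% were called higher and 29.8% lower in WT on the TMM scale, and 30.3% and 30.9% in KO. On the total-count scale the shares were 14.4% and 63.6% in WT, and 14.8% and 65.3% in KO. With 9 genes, the sensor counts lay near these shares. Mefv, the gene of pyrin, rose by 4.33 ± 0.42 (log2) in WT and 4.47 ± 0.39 in KO. Nlrp1b, a sensor that some pathogen proteases activate, fell by 1.54 in WT (-1.54 ± 0.22, edgeR adjusted p = 3.34e-05) and by 1.47 in KO (-1.47 ± 0.20, adjusted p = 2.54e-05). Nlrp6 had 0 reads in all 6 untreated libraries, 13 reads over the LPS-treated WT libraries and 55 over the KO libraries, which is at least 6.52-fold and 24.8-fold higher against a floor of 3 counts over the group. Reads of the Nlrp1 and Naip genes may be shared among near-identical copies. Of 5 other NOD-like receptor genes, 3 rose and 2 fell on both scales in each genotype, with Nod1 (4.38 ± 0.11 in WT and 4.37 ± 0.11 in KO), Nod2 (4.0 ± 0.12 and 3.87 ± 0.11), both receptors of peptidoglycan fragments, and Nlrc5 (3.40 ± 0.14 and 3.26 ± 0.14), a regulator of MHC class I genes, among those that rose.

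Among 9 genes of cell death beside Gsdmd, 7 rose and 1 fell in each genotype on the TMM scale. On the total-count scale 5 rose in each, and 2 fell in WT and 3 in KO. Called higher among all genes were 27.6% in WT and 30.3% in KO on the TMM scale, and 14.4% and 14.8% on the total-count scale. Called lower were 29.8% and 30.9% on the TMM scale, and 63.6% and 65.3% on the total-count scale. Mlkl, the pore-former of necroptosis, rose by 1.93 ± 0.14 (log2) in WT and 2.00 ± 0.14 in KO. Casp12, which lies in the same gene cluster as Casp1 and Casp4, had 0 to 4 reads per untreated WT library and 64 to 69 per LPS-treated one, and 4 to 9 and 129 to 170 in KO. Of 10 cofactors, 7 rose and 3 fell in WT, and 6 rose and 2 fell in KO, against 4 and 4 in WT and 4 and 5 in KO on the total-count scale. The guanylate-binding proteins and the GTPase Irgb10, which attack the membranes of bacteria and expose their LPS and DNA, were among them. Gbp5 rose by 9.47 ± 0.32 in WT and 8.83 ± 0.31 in KO, Gbp2 by 6.61 ± 0.26 and 6.08 ± 0.25, and Gm12250, the gene of Irgb10, by 5.89 ± 0.21 and 5.66 ± 0.21.

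The same shares of all genes apply to the last 2 roles. On the TMM scale, 27.6% were called higher and 29.8% lower in WT, and 30.3% and 30.9% in KO. The total-count scale gave 14.4% and 63.6% in WT, and 14.8% and 65.3% in KO. Of 10 inhibitors, 7 rose and none fell on the TMM scale in each genotype, and 7 rose and 3 fell on the total-count scale. They included Tnfaip3 (4.21 ± 0.14 in WT and 4.78 ± 0.14 in KO), which restrains NF-kB, Cflar (3.85 ± 0.10 and 3.95 ± 0.10), which restrains caspase-8, and Il1rn (2.38 ± 0.13 and 2.93 ± 0.13), the antagonist of the interleukin-1 receptor. All 7 transcriptional regulators rose on both scales in both genotypes, led by Irf1 (5.56 ± 0.12 and 5.10 ± 0.12), Irf8 (3.24 ± 0.10 and 3.14 ± 0.10) and Nfkb1 (2.72 ± 0.08 and 2.71 ± 0.08).

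Between genotypes none of the pathway genes passed, of 51 tested without and 52 tested with LPS. Unadjusted p under 0.05 were found for 8 and 11 of them, and 7.24% and 13.8% of all genes had such p. The value farthest from 0 without LPS was that of Il1b, at 0.92 ± 0.23 (log2, KO minus WT, edgeR adjusted p = 0.352). With LPS Il1b was at 0.65 ± 0.15 (adjusted p = 0.0766), with all KO libraries above all WT libraries, and DESeq2 called it (adjusted p = 0.00387), as did edgeR on all 12 libraries (adjusted p = 0.0443) and without KO replicate 2 (0.83, adjusted p = 0.0152). Over all settings its value ran from 0.49 to 0.83, with adjusted p of 0.00387 to 0.365. The smallest adjusted p with LPS were those of Casp12 (0.76 ± 0.17, 0.0591) and Nlrp6 (1.67 ± 0.37, 0.0603), named here after their values were seen. Irf1 was at 0.50 ± 0.12 without LPS (adjusted p = 0.343) and at 0.01 with it, and Gbp5 at 0.68 ± 0.35 (adjusted p = 0.765) and 0.02. Without WT replicate 1, untreated Irf1 was at 0.55 (adjusted p = 0.0132) and Gbp5 at 1.09 (adjusted p = 0.0313). Naip2 (-0.02 and -0.17), Nlrc5 (0.36 and 0.19), Ripk1 (-0.14 and -0.12) and Cflar (-0.19 and -0.12) had adjusted p of at least 0.339 in both conditions.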

How the data were processed

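Poly(A) RNA libraries of 12 macrophage cultures were sequenced single-end at 50 bp, per the labels' protocols. Alignment tools named in the submitters' processing notes are STAR 2.5.2b and SAMtools 1.3.1, with the mm10 build. In the sources used here, counter, strand setting and annotation are not given. The counts deposited by the authors are raw whole numbers for 35745 RefSeq transcripts. The deposited RPKM values are per transcript length and library, per the file headers and names, and served to compare genes with each other and as an alternative. Names came from RefSeq (GRCm38.p6, 35440 transcripts) and GENCODE M21 (188). The other 117 transcripts, with 0.259% to 0.738% of a library's counts, were left out.

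One transcript stood for each of 24445 genes, namely that with most counts over the 12 libraries. edgeR 4.0.16 (filterByExpr, TMM, quasi-likelihood F test, robust) was run in R 4.3.3, with genotypes compared on the 6 libraries of a condition, and LPS and the interaction on all 12 libraries. P-values were adjusted over all genes tested, at a threshold of 0.05. Standard errors are the change over the square root of F. The p-values measure the spread between libraries that the labels call biological replicates. Exact permutation tests were not used, since 3 against 3 libraries allow no two-sided p below 0.1. DESeq2 1.42.0, limma 3.58.1, RLE factors, no filter, the transcript with the lowest count, log2(RPKM + 1) and log2(RPKM + 0.1), the replicate block and leaving out libraries were alternatives, and total-count scaling was added after the values were seen. The fits were also run on simulated data, whose outcome is not given here and on which no statement in the text rests.

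Members and lists were chosen with earlier results of these data known. Beside the 7 members, the text names up to 3 called genes per role by smallest p and the most abundant gene of a role without calls. It also names the 2 genes most correlated with each member, after the exclusions given with the correlations. One gene that this rule names is not reported here. Same-numbered untreated and LPS-treated libraries deviated together (r = 0.24 to 0.50 in WT and 0.18 to 0.43 in KO). Between KO replicates 1 and 3 of different numbers r was 0.14 and 0.13, and replicate 2 was the male one in every group. The numbers may thus pair the LPS comparisons, but the LPS and interaction fits given above were unpaired. Blocking changed no call of a member there.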

Additional observations from a re-analysis of the deposited data

How the results depend on the processing

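For LPS, Nlrp3, Nlrc4, Aim2, Casp1, Casp4 and Gsdmd kept their direction and their call in both genotypes under every alternative run, 22 for each comparison. Pycard did not: in WT its log2 change was -0.10 with total-count scaling and -0.08 on log2(RPKM + 1) and log2(RPKM + 0.1), and its rise in KO was not called under these 3 settings, so that 6 members were called there. Without 1 library at a time it stayed called, at 0.31 to 0.59 in WT. By their construction these scales move all genes nearly alike. Depth limited Nlrc4 most, with 63 to 206 reads per library, and Nlrp6 and Casp12 beyond the members.

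Between genotypes and for the interaction several values changed sign, most but not all of them near 0 and none of them called. The cause was not tested. Without LPS, total-count scaling gave 0.02 for Nlrp3, 0.04 for Casp1 and 0.02 for Naip2, and both RPKM scales gave 0.04 for Nlrp3, 0.03 for Aim2, 0.06 for Casp1 and 0.04 for Naip2. Casp1 was at 0.01 with limma-voom, 0.0017 with no filter and 0.0019 with the lowest transcript. That transcript choice gave 0.22 for Cflar, against -0.19 with the transcript of most counts. With LPS, Casp4 was at 0.01 with total-count scaling and 0.03 on both RPKM scales, and Nlrp3 at 0.01 on the latter. Irf1 was at -0.18 with the lowest transcript, against 0.01 with the transcript of most counts. For the interaction, Nlrp3 was at -0.01 with DESeq2 and with RLE factors, at -0.03 with total-count scaling and both RPKM scales, and at -0.02 without WT replicate 1 in both conditions. The interaction of Cflar was -0.21 with the lowest transcript, against 0.11 before. That of Il1b was 0.04 on log2(RPKM + 1), against -0.24 before.

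Leaving out 1 library at a time moved the untreated genotype values of Nlrp3 between -0.09 and 0.05, Aim2 between -0.27 and 0.25, Pycard between -0.04 and 0.23, Casp1 between -0.09 and 0.08, Naip2 between -0.10 and 0.09 and Ripk1 between -0.26 and 0.04. With LPS the ranges were -0.11 to 0.02 for Nlrp3, -0.14 to 0.01 for Nlrc4, -0.12 to 0.14 for Casp4, -0.21 to 0.05 for Ripk1, -0.07 to 0.18 for Gbp5 and -0.05 to 0.04 for Irf1. For the interaction they were -0.09 to 0.07 for Nlrp3, -0.52 to 0.05 for Aim2 and -0.16 to 0.22 for Ripk1. The number of members called between genotypes with LPS was 0 or 1, with 1 (Pycard) without LPS-treated WT replicate 1.

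The count of all genes called moved more. Without LPS it was 0, against 49 with DESeq2, 27 in the fit on 12 libraries, 9 with no filter, 1 with total-count scaling and 749 without WT replicate 1. With LPS it was 127, against 265 with DESeq2, 276 with no filter and 17 to 545 without 1 library. The interaction had 0, against 8 on log2(RPKM + 1) and 24 without WT replicate 1 in both conditions.

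With the replicate number as a block, the LPS calls of all 7 members and the absence of a member called between genotypes were as before, untreated Casp1 was at 0.0048, and genes called between genotypes with LPS fell from 127 to 47. Same-numbered WT and KO libraries had correlated deviations of 0.08, 0.22 and 0.22 without LPS and -0.0, 0.2 and 0.1 with it, which is not over 0.1 in every pair. The labels give these groups no shared animal, litter or day, but same-numbered libraries were also of 1 sex by Ddx3y and Xist, with replicate 2 male in each group.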
